A study of Mus musculus with 17 samples.

Results

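The noncoding transcripts described here are those that Agilent mouse arrays read with a probe to a RefSeq noncoding RNA record, the class of record whose accession begins with NR_. Of 743 such probes among the 55681 probes on the array that are no control, 208 were detected in forestomach on every one of the 17 arrays. These 208 probes read 169 of the 626 noncoding records on the array, where all probes together read 37854 records and other targets. The probes were selected on the flag for a signal well above background in the forestomach (Cy5) channel, on every array of every group. The level of a probe in forestomach is therefore given as a description. The differences between doses are tested, but the condition leaves out a probe that a dose brought up from background or took below it, so the counts of calls hold for probes detected in every group. The members made up 28% of the noncoding probes, whereas 35.8% of all probes met the same condition of detection.

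The forestomach is the squamous, keratinizing part of the rodent stomach. Male mice of the transgenic strain MutaTMMouse, aged 24 to 26 weeks, received benzo(a)pyrene, a polycyclic aromatic hydrocarbon, by gavage for 28 days, and tissue was collected 72 hours after the last dose. The groups were 5 mice given olive oil alone (control, replicates 1 to 5), 4 given 25 mg/kg body weight per day (replicates 6 to 9), 4 given 50 mg/kg (replicates 12 to 15) and 4 given 75 mg/kg (replicates 17 to 20). Every array held Cy5-labelled RNA of 1 forestomach against Cy3-labelled reference RNA pooled from a panel of mouse cell lines, and no dyes were swapped. Every group, control included, carried the strain's lacZ transgene and was dosed by gavage. The values below are log2 ratios of Cy5 over Cy3 after background correction and loess within each array, and n is 5 for control and 4 for each dose.

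Benzo(a)pyrene binds the aryl hydrocarbon receptor, a ligand-activated transcription factor, and is turned by enzymes that this receptor induces into metabolites that form DNA adducts. Long noncoding RNAs act as RNA: some are scaffolds of nuclear bodies, some silence imprinted genes in cis, and some are mainly the precursors from which small nucleolar RNAs (snoRNAs) or microRNAs are cut. Transcribed pseudogenes are copies of coding genes that make RNA but are not annotated to make a protein, and a probe to one can also bind the RNA of its coding relatives.

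By their annotation in the RefSeq gene table of GRCm38.p6, 72 member probes (52 RNAs) read pseudogenes, whatever their symbol. Pseudogenes with a RIKEN or opposite-strand name, such as Fbxl12os, were counted there. Noncoding genes of other types were split by symbol. Of these, 38 probes read RNAs with a RIKEN clone name and 13 read predicted noncoding genes. RNAs named for lying on the opposite strand of a gene had 3 probes, and other noncoding genes 47. Another 4 probes, of Bmp1, Tmem80, Zfp672 and 4930523C07Rik, read a noncoding record of a gene that the table calls protein coding. The remaining 31 probes (23 RNAs) had no entry in the table and are called by their record. The array's design names an older mouse build, so positions of probes are not given.

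Some of the members are precursors of small RNAs. In the gene table, 12 member RNAs contain a snoRNA gene and 8 contain a microRNA gene. For each microRNA gene inside Dleu2, Mir22hg and Mir17hg, 1 of the mature microRNAs is printed as an example of the products cut from these hosts. Inside the span that the gene table gives Mir17hg lay 1 microRNA gene, Mir92-1. MicroRNA genes outside that span were not counted, so this is no full list of its products. The printed sequences are RefSeq sequences of GRCm38.p6, 5′ to 3′, with the seed (bases 2 to 8) in capitals. The arrays measured the host RNA and not these short products.

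mmu-miR-15a-5p, inside Dleu2, chr14:61632075-61632096, minus strand: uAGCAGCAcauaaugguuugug
mmu-miR-16-5p, inside Dleu2, chr14:61631936-61631957, minus strand: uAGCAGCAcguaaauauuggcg
mmu-miR-22-3p, inside Mir22hg, chr11:75463772-75463793, plus strand: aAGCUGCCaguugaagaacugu
mmu-miR-92a-3p, inside Mir17hg, chr14:115044476-115044496, plus strand: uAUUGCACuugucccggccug

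The first and second of these, from 1 host, share the seed AGCAGCA.

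On these arrays 39.9% to 50.7% of probes were well above background, and the arrays lay on 3 slides, each with at least 1 array of every group. The 7 squamous epithelium markers, keratins and other genes of stratified epithelium, were all detected on all arrays, with a mean ratio of 3.24 to 3.87 per array. Smooth muscle markers were also high, with changes of -0.59 to -0.25 at 75 mg/kg. Of the glandular stomach markers 1 of the 5 measured was detected on all arrays. Their mean ratio per array was 0.30 to 2.36 in control, 0.85 to 5.43 at 25 mg/kg, 1.37 to 2.42 at 50 mg/kg and 0.80 to 3.58 at 75 mg/kg. In both lists 0 markers passed at any dose. The part of tissue make-up in the results below was not tested. Over all 27577 probes tested, the 75 mg/kg group had 194 probes higher and 43 lower than control. Centring each array on its median instead of loess gave 150 higher and 3 lower, and moved the median change of all probes from -0.01 to 0.17. With slide as a fixed block 474 probes were called (369 higher, 105 lower), and with slide as a random block 416. Leaving out control replicate 1, 3 or 4 gave 144, 156 and 133 calls, and leaving out replicate 17, 18 or 20 of the 75 mg/kg group gave 114, 106 and 137. Over these fits of the same probes the share called ran from 0.384% to 1.72%.

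At 75 mg/kg, 2 of the 208 noncoding probes rose and 0 fell (adjusted p under 0.05 in limma over all 27577 probes), and both read H2-K2, a transcribed pseudogene among the major histocompatibility complex class I genes, whose coding members present peptides on the cell surface. The share called was 0.962% of members, beside 0.859% of all probes tested. At 25 mg/kg, 0 members passed the threshold, beside 0.0109% of all probes. At 50 mg/kg, 0 members passed, beside 0.0326% of all probes. In both of these comparisons limma was used with Benjamini-Hochberg adjustment, and 10 and 8 members had an unadjusted p under 0.05. All of the alternative fits at 25 mg/kg also gave 0, and at 50 mg/kg 1 of them, with array weights, gave 1.

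Over all 208 members the median change was 0.02 at 25 mg/kg, 0.01 at 50 mg/kg and -0.01 at 75 mg/kg, and over all probes tested it was 0.01, -0.01 and -0.01. At 75 mg/kg, 102 members lay above control and 106 below, with changes from -0.85 to 1.63. With median centring 190 lay above, alongside the shift of all probes given above. An unadjusted p under 0.05 was reached by 18 members (8.65%) at 75 mg/kg, and by 9.75% of all probes.

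The precision was enough to bound most members. The median standard error was 0.14 on the log2 scale. The 95% interval of the change at 75 mg/kg lay between -1 and 1 for 194 of 208 probes and between -0.5 and 0.5 for 137.

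**Figure D1:**
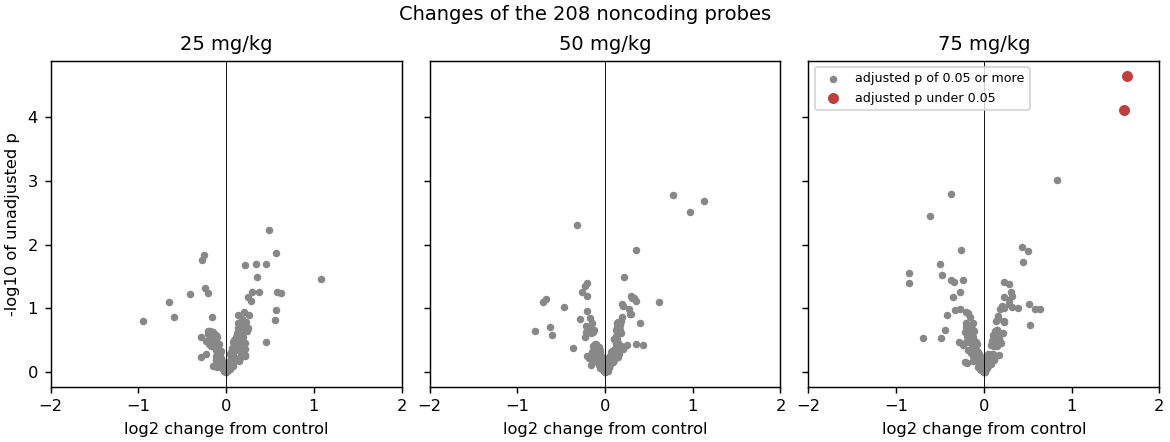
Each point is 1 of the 208 noncoding probes in 1 comparison of a dose with control; the horizontal axis is the log2 change and the vertical axis -log10 of the unadjusted p from limma. The 2 red points at 75 mg/kg, at 1.60 and 1.63, are the probes of H2-K2, and no other point has an adjusted p under 0.05.

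H2-K2 was read by a pair of probes. In the first (A_51_P502456) the controls had ratios of -0.95, -0.42, -0.91, -0.85 and -1.36. The 25 mg/kg mice had -0.58, -0.68, 0.31 and -0.10. The 50 mg/kg mice had 0.45, 0.94, 0.34 and -0.79, and the 75 mg/kg mice 0.53, 1.30, 0.10 and 0.89. All 4 mice at 75 mg/kg lay above all 5 controls, whereas at 25 and 50 mg/kg the ranges overlapped the controls.

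The rise at 75 mg/kg was 1.60 ± 0.31 (SE), or 3.04-fold, with an adjusted p of 0.0174 in limma. At 50 mg/kg the change was 1.13 ± 0.31 (adjusted p = 0.393, limma) and at 25 mg/kg 0.63 ± 0.31 (adjusted p = 1, limma), neither of which passed.

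The second probe of H2-K2 (A_55_P2051334) had control ratios of -1.0, -0.39, -1.08, -0.91 and -1.34, and 75 mg/kg ratios of 0.80, 1.08, 0.04 and 0.80. At 50 mg/kg it had 0.24, 0.70, 0.06 and -0.92, so that replicate 15 lay within the controls in both probes. At 25 mg/kg it had -0.43, -0.82, -0.07 and -0.15. The lowest mouse of the 75 mg/kg group was replicate 19 in both probes. The rise of the second probe at 75 mg/kg was 1.63 ± 0.28, or 3.09-fold, with an adjusted p of 0.00825 in limma.

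A straight line of the log2 ratio on dose called the same 2 probes and no other member, beside 1.09% of all probes. The slopes of H2-K2 were 0.0213 and 0.0211 per mg/kg. Between 75 and 25 mg/kg, 0 members differed at the threshold in limma, beside 0.0471% of all probes, and 5 had an unadjusted p under 0.05. Within each slide the difference of the 75 mg/kg arrays from the controls was 1.22, 1.58 and 2.25 in the first probe of H2-K2. In the second it was 1.50, 1.56 and 2.15.

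The call of the first probe depended on single mice. When replicate 17, 18 or 20 was left out, its adjusted p in limma was 0.05, 0.0865 and 0.0678, with changes of 1.66, 1.40 and 1.54. The second probe kept an adjusted p of at most 0.0464 in limma under every alternative, with changes of 1.49 to 2.03.

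Of the genes beside H2-K2, H2-K1 rose and Vps52 did not pass; the difference between them was not tested. In the GRCm38.p6 gene table its neighbours are Vps52, which codes for a subunit of a vesicle tethering complex, on one side, and AA388235 followed by H2-K1 on the other. The 2 probes of Vps52 had changes of 0.09 and 0.08 at 75 mg/kg (adjusted p = 0.838 and 0.857, limma). H2-K1, a coding class I gene, rose by 1.85 ± 0.31 and 1.72 ± 0.29 in its 2 probes (adjusted p = 0.00738 and 0.00642, limma). AA388235 did not enter the fit. Over all coding class I genes measured, 10 of 16 probes (13 genes) rose at 75 mg/kg and 0 fell, with a median change of 1.34 and a range of -0.33 to 2.29.

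Class I genes are near copies of each other, and their alleles differ between mouse strains. The probes' own sequences were not used here, and which class I RNAs the probes of H2-K2 bind was not tested. The promoter window of H2-K1 is printed because this neighbour rose with H2-K2 and because it carries the letters that interferon regulatory factors are known to bind, searched as AANNGAAA on both strands and shown in capitals (here on the other strand). The window runs from 250 bases before to 50 after the start of the RNA, from RefSeq, GRCm38.p6, chr17:34000298-34000597, minus strand.

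H2-K1: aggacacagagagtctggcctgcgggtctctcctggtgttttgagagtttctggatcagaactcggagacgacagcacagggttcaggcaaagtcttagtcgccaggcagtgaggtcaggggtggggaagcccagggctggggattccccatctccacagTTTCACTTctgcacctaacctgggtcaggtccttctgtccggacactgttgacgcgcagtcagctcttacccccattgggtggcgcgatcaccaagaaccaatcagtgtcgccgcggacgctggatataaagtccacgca

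Of 32851 promoter windows of the same length in the RefSeq table, 23.9% held these letters, as did 16 of the 75 windows of member genes (21.3%). H2-K2 was not among the promoter windows. A match is a match of letters and not a measured site.

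Of the interferon response genes, 0 of the 9 measured passed at 25 mg/kg and 1 at 50 mg/kg, where neither probe of H2-K2 passed: Oas1a, an antiviral enzyme, rose by 2.41 ± 0.40 (adjusted p = 0.0486, limma). At 75 mg/kg 6 of the 9 rose and 0 fell, with a median change of 1.49, among them Oas1a (3.26 ± 0.40, adjusted p = 0.00104, limma) and Isg15 (3.18 ± 0.47, adjusted p = 0.00281, limma), a ubiquitin-like protein. The mean ratio of the list was -2.08 to -1.06 on the control arrays and -0.72 to 0.51 on the 75 mg/kg arrays, so these did not overlap. Of the leukocyte markers measured (Ptprc, Cd3e, Itgam, Lyz2 and Mcpt4), 0 of 5 passed at any dose, and the median change at 75 mg/kg was -0.14. They did not all lie on one side of control: Lyz2, the lysozyme of macrophages and other myeloid cells, had changes of 0.78 ± 0.21 at 50 mg/kg (adjusted p = 0.39, limma) and 0.72 ± 0.21 at 75 mg/kg (adjusted p = 0.184, limma; unadjusted p = 0.00383), whereas Ptprc and Cd3e had -0.21 and -0.24 at 75 mg/kg. Their mean ratio was -0.09 to 0.87 on control arrays and 0.18 to 0.59 on 75 mg/kg arrays. The part of either list in the result for H2-K2 was not tested. In bulk tissue, a change in the number of cells of a type and a change of RNA per cell cannot be told apart.

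The members next in order of p at 75 mg/kg did not pass. Rps4l, a transcribed pseudogene related to ribosomal protein S4, had control ratios of 2.51, 2.34, 2.83, 2.80 and 3.12. At 25 mg/kg it had 3.61, 3.26, 3.16 and 3.14, and at 50 mg/kg 3.28, 3.60, 3.21 and 3.90. The 75 mg/kg mice had 3.47, 3.73, 2.94 and 4.07. All mice at 25 and at 50 mg/kg lay above the highest control, whereas replicate 19 at 75 mg/kg lay inside the control range.

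The changes of Rps4l were 0.57 ± 0.21 at 25 mg/kg, 0.78 ± 0.21 at 50 mg/kg and 0.83 ± 0.21 at 75 mg/kg, and the adjusted p was 1, 0.39 and 0.0824 in limma. With slide as a fixed block its adjusted p at 75 mg/kg was 0.0367 in limma, and with slide as a random block 0.0349. It was 0.0157 when replicate 19 was left out and 0.0461 when control replicate 5 was. With the scanner's processed signals the change was 0.17 (adjusted p = 0.928, limma). Its reference channel was above background on 15 of 17 arrays. The coding gene Rps4x, which makes ribosomal protein S4, had a change of 0.06 ± 0.07 (adjusted p = 0.848, limma).

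Gm5643, a transcribed pseudogene, had control ratios of -1.76, -1.61, -1.84, -1.60 and -1.47. At 25 mg/kg it had -1.87, -1.84, -2.05 and -1.92, at 50 mg/kg -2.04, -2.0, -1.89 and -2.0, and at 75 mg/kg -1.96, -2.27, -1.80 and -2.10. The mice at 25 and 50 mg/kg lay at or below the lowest control, and replicate 19 at 75 mg/kg lay within the controls. The changes were -0.27, -0.32 and -0.38, each with an SE of 0.10, and the adjusted p was 1, 0.511 and 0.115 in limma. Without replicate 19 the adjusted p at 75 mg/kg was 0.0451 in limma, and with median centring the change was 0.01.

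The record NR_001592 had no entry in the gene table, so it was not matched to any list. Its control ratios were 1.04, 0.34, 1.12, 0.47 and 0.67, and its 75 mg/kg ratios -0.18, -0.14, 0.43 and 0.36. Both middle doses lay within the control range. The change at 75 mg/kg was -0.61 ± 0.18 (adjusted p = 0.18, limma).

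Dancr, the host of the snoRNA Snora26, had control ratios of -1.12, -1.33, -1.15, -1.14 and -0.52. The 75 mg/kg mice had -0.55, -0.82, -0.74 and -0.09, so that 4 of 5 controls lay below all 4 treated mice and control replicate 5 lay among them. Its change was 0.46 ± 0.18 at 25 mg/kg, 0.29 ± 0.18 at 50 mg/kg and 0.50 ± 0.18 at 75 mg/kg (adjusted p = 0.319, limma, at the last). With slide as a fixed block the adjusted p at 75 mg/kg was 0.036 in limma, with a change of 0.49.

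**Figure D2:**
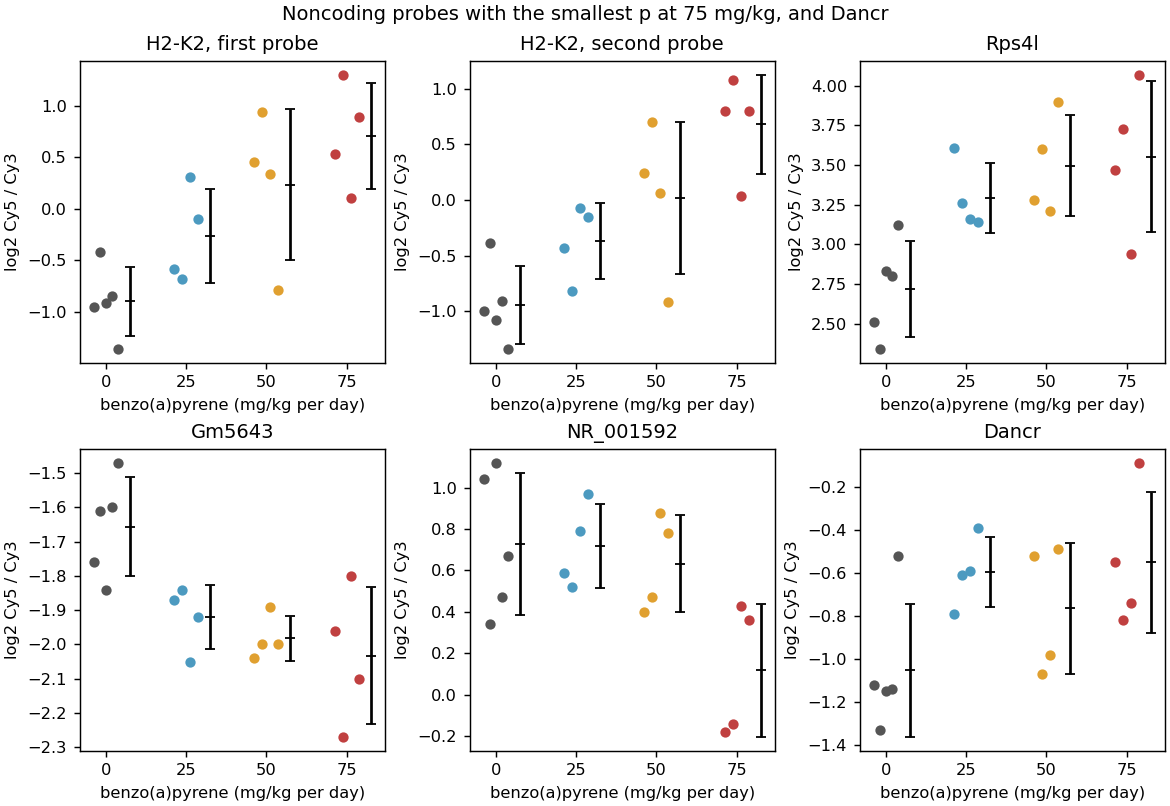
Log2 Cy5 over Cy3 of every array (coloured points) by dose for the 5 probes with the smallest p at 75 mg/kg and for Dancr; the black mark and bar beside each group are its mean and SD. In both H2-K2 panels the 4 arrays at 75 mg/kg lie above all 5 controls, and in the other panels at least 1 array at 75 mg/kg lies within the range of the controls.

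The members with the smallest p at the lower doses included Zfp672, a zinc finger gene, with 0.49 ± 0.16 at 25 mg/kg (adjusted p = 1, limma). At the same dose they included 1 probe of NR_026831, a record without an entry in the gene table, with -0.25 ± 0.09. At 50 mg/kg they included Rmrp, the RNA of the nuclease RNase MRP, with 0.35 ± 0.12 (adjusted p = 0.655, limma). The change of Rmrp was 0.01 ± 0.12 at 75 mg/kg. Counted by arrays that do not overlap the controls, 6 members stood apart at 75 mg/kg, 5 above and 1 below. That is 2.88% of members beside 3.18% of all probes. Apart from H2-K2 these were 2610035D17Rik, Gm5779 and Gm8096 above the controls, with changes of 0.16, 0.21 and 0.43, and NR_026831 below, with -0.26.

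By role, 0 members of any list other than H2-K2 passed at any dose. Members were placed on lists by their symbol in the gene table. The 31 probes (23 RNAs) without an entry there could not be placed, so a list can lack RNAs that belong to it. Of those 31 probes 0 passed at any dose. The snoRNA host genes carry snoRNAs, which guide chemical modification of ribosomal RNA, in their introns, and their spliced RNAs are known targets of nonsense-mediated decay. By symbol the list held 8 members, all named Snhg (Snhg1, Snhg3, Snhg6, Snhg7, Snhg10, Snhg12, Snhg16 and Snhg17). These 8 lay below the reference RNA in control forestomach, with a median ratio of -0.97, and did so under each of the normalizations tried. Their median change at 75 mg/kg was 0.11, with a range of -0.09 to 0.28, beside -0.01 for all probes. The low ratio did not hold for all 12 member RNAs with a snoRNA gene inside. Outside the list, Gm4759 had a control mean of 0.74, whereas 1110038B12Rik, 2410006H16Rik and Dancr had -1.95, -1.62 and -1.05. Over the 12 the median change at 75 mg/kg was 0.11, with a range of -0.09 to 0.5.

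Among these 8 Snhg hosts Snhg12 had the largest change, 0.28 ± 0.13 (adjusted p = 0.481, limma). It went from a control mean of -1.08 ± 0.20 (SD) to -0.80 ± 0.20. Dancr, a snoRNA host outside this list, had the larger change of 0.50 ± 0.18 given above. Snhg1, with the lowest ratio of the 8, had control values of -1.86, -1.93, -2.01, -1.93 and -1.97, and 75 mg/kg values of -1.60, -1.99, -2.01 and -1.77. Its groups overlapped, and the change was 0.10 ± 0.09. Snhg6 spread most, with -2.40 as its lowest and -0.92 as its highest ratio. The proteins that snoRNAs work with were measured by 8 genes (Fbl and Dkc1 among them), and the factors of nonsense-mediated decay by 9 (Upf1 and Smg1 among them); at 75 mg/kg 0 of 8 and 0 of 9 passed, with median changes of 0.11 and 0.09.

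The nuclear and architectural RNAs were read by 9 probes. Malat1, an abundant RNA of nuclear speckles, had control ratios of -2.74, -2.47, -2.50, -2.70 and -2.76 and 75 mg/kg ratios of -2.87, -2.10, -2.46 and -2.19, which overlapped. Its change was 0.23 ± 0.15 (adjusted p = 0.703, limma). Neat1, the scaffold of paraspeckles, had a control mean of -0.39 ± 0.13 (SD) and a mean of -0.29 ± 0.34 at 75 mg/kg, a change of 0.09 ± 0.19. The paraspeckle proteins, such as Nono and Sfpq, had 0 of 9 past the threshold and a median change of 0.08.

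Norad, which binds Pumilio proteins, had 4 probes with changes of 0.05, -0.29, 0.08 and 0.04 at 75 mg/kg, and Tug1 had 3 with 0.05, 0.07 and 0.03. The first Tug1 probe (A_51_P119401) varied little: its ratios ran from -0.40 to -0.11 over all arrays, and the 95% interval of its change at 75 mg/kg was -0.12 to 0.23.

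The imprinted noncoding RNAs matched by symbol, which are made from 1 parental chromosome, were read by 6 probes. Their median control ratio was 0.64, with 5 of 6 above the reference, whereas median centring put the median at -0.13 with 3 of 6 above. Peg13 had the highest, with control ratios of 2.35, 3.03, 2.76, 2.68 and 3.15 and 75 mg/kg ratios of 2.48, 2.44, 2.63 and 3.16, which overlapped. Kcnq1ot1, which silences its neighbours in cis, had control ratios of 0.50, 0.95, 0.55, 0.47 and 0.41 and 75 mg/kg ratios of 0.21, 0.23, 0.08 and 0.44. Its change was -0.34 ± 0.15 (adjusted p = 0.471, limma), the largest in size among these 6 probes. Both probes of Meg3, an RNA of the Dlk1 domain, and those of Airn and Mirg had changes of -0.13, -0.18, -0.18 and 0.00.

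Of the 4 microRNA host genes, Mir17hg had a control mean of -0.52 ± 0.20 (SD) and means of -0.23 ± 0.13, -0.37 ± 0.24 and -0.21 ± 0.33 at the rising doses. Its change at 75 mg/kg was 0.31 ± 0.15 (adjusted p = 0.535, limma). Dleu2, the host of the microRNAs with the shared seed printed above, had a change of -0.15 ± 0.11, with a 95% interval of -0.37 to 0.08. Mir22hg spread more, with control ratios of 1.20, 0.56, 0.68, 0.07 and -0.58, and its change of -0.05 had an interval of -0.74 to 0.65. Mir99ahg had a change of 0.05 ± 0.14.

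Among the RNAs linked to p53, the transcription factor that responds to DNA damage, 8 probes were matched by symbol (Meg3, Neat1, Pvt1 and Tug1). Of these 0 passed at any dose, and the median change at 75 mg/kg was -0.01. Pvt1 had changes of -0.08 ± 0.15 and -0.05 ± 0.16 in its 2 probes. On the list of RNA polymerase III and telomerase RNAs, the 3 members were each near control at 75 mg/kg. Rmrp was at 0.01 ± 0.12, Rpph1, the RNA of RNase P, at 0.03 ± 0.11, and Terc, the template of telomerase, at -0.13 ± 0.11. RNAs outside this list were not counted with them. The share of each of these lists that passed, 0, is read beside 0.859% of all probes.

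**Figure D3:**
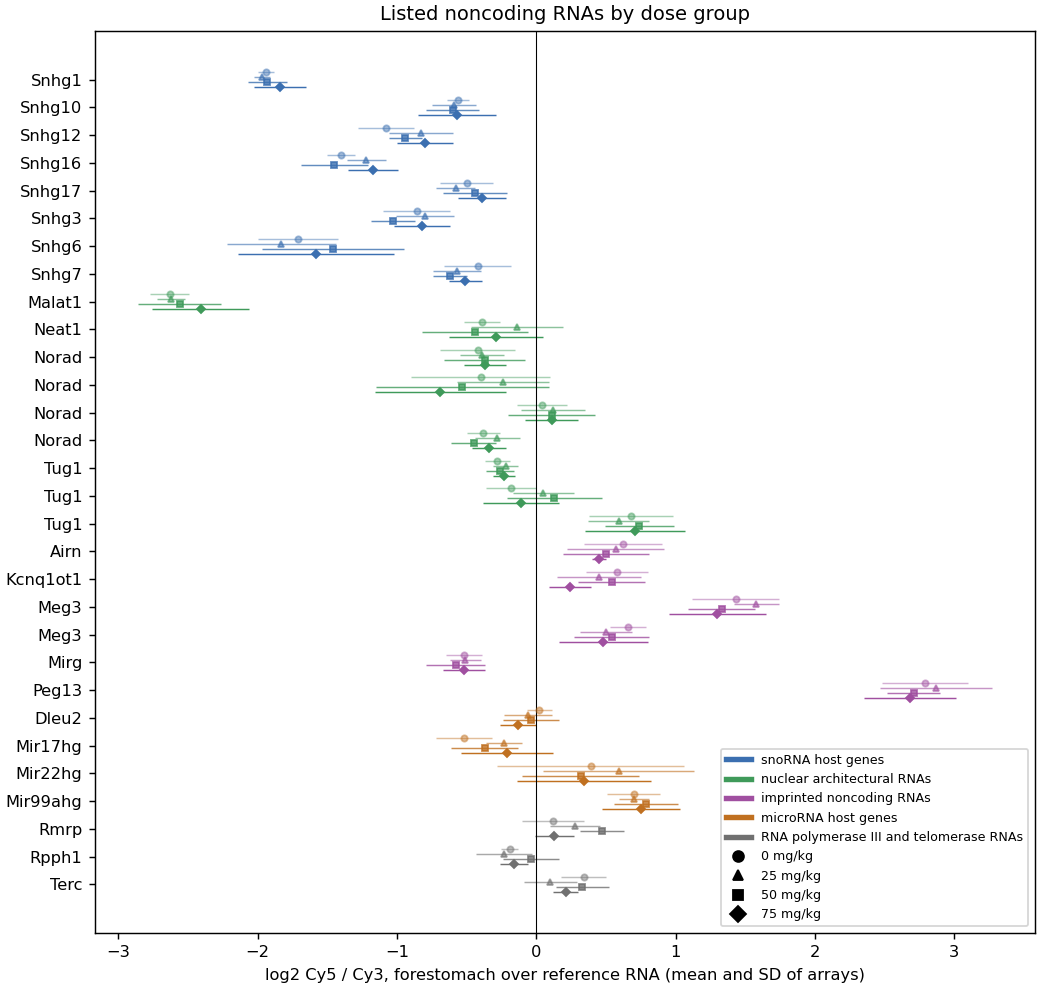
Mean and SD over arrays of log2 Cy5 over Cy3 for the listed noncoding RNAs, with 1 line of points per probe, symbols for the dose and colours for the list. The plotted snoRNA hosts, those with an Snhg symbol, all lie left of 0, and Peg13 lies farthest right at 2.68 to 2.87. None of the plotted probes passed the test at any dose (H2-K2 is not plotted here).

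The ratio to the reference ranged widely among members. The mean of the controls had a median of -0.05 over the 208 probes and ran from -4.58 to 5.03, with 23 probes at 1 or more and 38 at -1 or less. These ratios compare forestomach with a mixture of cell lines and depend on how the channels are centred: with median centring the median was -1.10. The members with the highest mean ratio over all arrays were Sprr2j-ps at 5.45, NR_030716 at 4.05, Rnf227 at 4.00, Rps4l at 3.23 and 4921531C22Rik at 3.03, and their control means were above 0 under each normalization tried. The order did not hold with the scanner's processed signals: the control mean of NR_030716 was then 3.96 and that of 4921531C22Rik 3.29, below a predicted gene at 5.78, Rps4l at 5.06 and an RNA with a RIKEN name at 4.99.

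Sprr2j-ps is a pseudogene of the small proline-rich proteins, which are cross-linked into the cornified envelope of squamous epithelium. Its control ratios were 5.18, 4.53, 4.96, 4.52 and 5.98, and at 75 mg/kg they were 5.56, 5.90, 4.81 and 6.17, which overlapped (change 0.58 ± 0.33, adjusted p = 0.633, limma). The reference was above background on 15 of 17 arrays for this probe, so that its ratio rests on a dim reference. The coding family members Sprr2d and Sprr1a had changes of 0.66 ± 0.27 and -0.13 ± 0.16, and neither passed (adjusted p = 0.422 and 0.854, limma).

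The lowest ratios belonged to the 3 probes of Gm10845, a predicted noncoding gene, at -4.58, -3.02 and -2.90, then to Malat1 at -2.56 and 1 probe of Gm6981 at -2.17. Under each normalization tried these lay below 0. Pseudogenes as a class had a median control ratio of -0.35, with 21 of 72 probes above 0. RNAs classed by a RIKEN name, which leaves out pseudogenes with such a name, had 0.11, with 22 of 38 above 0. With median centring these medians became -1.57 and -0.39.

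**Figure D4:**
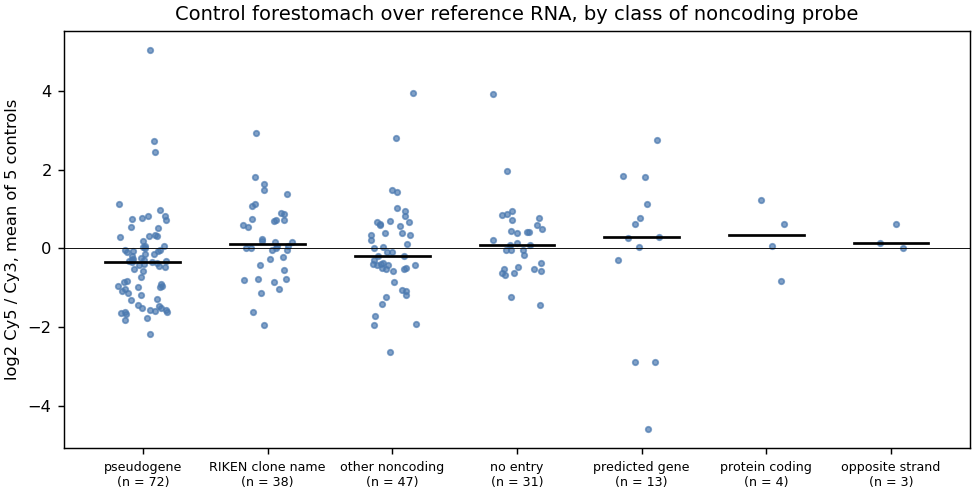
Each point is the mean log2 Cy5 over Cy3 of the 5 controls for 1 noncoding probe, by class, with the class median as a bar. The pseudogene bar lies at -0.35 and the RIKEN bar at 0.11, and the 3 lowest points among the predicted genes are the probes of Gm10845.

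Several RNAs were read by more than 1 member probe, which shows how far a value belongs to the probe. For 27 such RNAs (66 probes), the ratio to the reference differed between probes of 1 RNA by a median of 0.28 and at most 2.21, in Gm6981. The change at 75 mg/kg differed by a median of 0.14 and at most 0.45, in Gm10845, and had opposite signs within 13 of the 27 RNAs. The 2 probes of H2-K2 differed by 0.02.

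The SD between mice of 1 group had a median of 0.22 over members, beside 0.2 over all probes tested, and exceeded 0.5 in 16. It was largest in NR_002860 at 1.09, Gm5176 at 0.95, Rnu3b1, a U3 snoRNA gene, at 0.88, Gm5801 at 0.79 and 1700029M20Rik at 0.78. In Gm5176 the 4 arrays of the third slide, 1 from each group, ran from -2.17 to -1.22, below all others, which ran from -0.38 to 0.67. In NR_002860 they ran from -3.21 to -2.16 and the others from -1.50 to 0.56. The third slide lay wholly apart from the rest in 15 members (7.21%, 11 below and 4 above) and in 5.5% of all probes. H2-K2, Rps4l and Dancr were not among the 15, whereas Mir22hg and 1 probe of Norad were.

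The dioxin response element core, GCGTG, to which the aryl hydrocarbon receptor binds, was searched on both strands of the promoter windows. It was in 45 of 75 windows of member genes (60%) and in 32.4% of all windows, and the median GC content was 55% in the former and 52.7% in the latter. The members were selected for detection in forestomach on every array, whereas all windows were not, so these sets are unlike. The difference between the shares was not tested. The 43 member probes of genes with the letters had a median change of 0.05 at 75 mg/kg, and the 27 with a window but without them had 0.01, with 0 called in either. H2-K2 was in neither count.

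The condition of detection decided who was described. The 20 noncoding probes detected on 16 of 17 arrays, just outside, had median signals of 96 to 125 and changes of -0.50 to 0.35 at 75 mg/kg. Of their 20 misses, 12 were on control arrays. Over all probes, 39.9% to 48.4% were well above background on control arrays and 44.6% to 50.7% on 75 mg/kg arrays. The misses of all probes just outside the condition were not counted by group. The 20 members with the lowest median signal, 101.5 to 133, had changes of -0.27 to 0.23. Outside the members, 2 further noncoding probes were called higher at 75 mg/kg: Gm21944 (adjusted p = 0.00471, limma) and Sprr2g, of the small proline-rich protein family (adjusted p = 0.00941, limma). Each was detected on 4 of 4 arrays at 75 mg/kg but on only 2 of 5 control arrays. Their fitted changes, 2.99 and 2.14, were taken against control signals mostly not well above background, so the size of the rise was not measured.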

How the data were processed

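Per the file headers, the scans were read with Feature Extraction 10.7.3.1, and the authors deposited its intensity values for the spots of every array. The median signal and median background intensity of each channel were used, since the mean signal was not analysed here. The scanner's processed signals and the deposited series table of log2 ratios served as alternatives. The latter followed the log2 ratio from loess on uncorrected signals, with a correlation of 0.998 to 0.999 over probes. The slope was 0.995 to 0.998, which places it close to the log2 scale, although the sources used here do not state its scale.

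Background was corrected by normexp with an offset of 50, loess was run within arrays (control spots weighted 0), outlier spots were left out, and spots of a probe were averaged. The 27577 probes detected in Cy5 on 4 or more arrays entered 1 limma fit (lmFit and eBayes, limma 3.58.1, R 4.3.3, two-sided, Benjamini-Hochberg, threshold 0.05) over all 17 arrays. The design calls the samples biological replicates. The number of arrays limits the precision. On simulated data with 27577 probes for 75 mg/kg against control, 86% of changes of 1 and 100% of changes of 2 on the log2 scale were recovered, with 3.63% false among calls. The simulated noise was normal and independent for each probe and array, with no slide effect. These rates therefore hold for that setting and were not measured for the real arrays.

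The members, the gene lists and the rule for naming were chosen with earlier results of these data known. Named were members past the threshold, the 5 with the smallest p per dose where fewer than 5 passed, all list members, and the 5 with the highest ratio, the lowest ratio and the largest SD. A few others were named after their values were seen: the non-overlapping members, neighbours, related coding genes and probes with noncoding records outside the members. Alternatives changed the background correction, normalization, filter, slide block, array weights, probe choice and arrays.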

Additional observations from a re-analysis of the deposited data

Results flagged for a closer look

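Among 212 groups of arrays of the named members, 12 held 1 array that lay far from the others of its group, by the size of the gap over the whole range. Chance alone flags about 1 in 20 groups, and the 12 fell on 8 arrays.

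Control replicate 5 was high in Dancr, at -0.52 where the other controls ran from -1.33 to -1.12, and low in Gm5176, at -2.17 where they ran from 0.09 to 0.67. Control replicate 2 was high in Kcnq1ot1, at 0.95 against 0.41 to 0.55, and low in 1 probe of Meg3, at 0.44 against 0.67 to 0.76. Control replicate 3 was high in Pvt1, at -1.33 against -2.20 to -1.95.

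In the 50 mg/kg group, replicate 15 was low in 1 probe of Norad, at -0.35 against 0.21 to 0.33. The same array was high in Snhg12, at -0.77 against -1.01 to -0.99, and in Snhg3, at -0.78 against -1.14 to -1.08. Replicate 14 was low in the other probe of Meg3, at 0.97 against 1.43 to 1.50, and replicate 12 was high in Rnu3b1, at 0.45 against -1.14 to -0.99.

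In the 25 mg/kg group, replicate 7 was low in Snhg17, at -0.79 against -0.54 to -0.50. In the 75 mg/kg group, replicate 20 was high in 1 probe of Gm10845, at -2.79 against -3.14 to -3.08. None of these results passed a test between doses in the fit of all arrays.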

How the results depend on the processing

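At 75 mg/kg, 2 members were called in the reported fit. The count was 5 (4 higher, 1 lower) with slide as a fixed block, 4 when noncoding probes detected on at least 4 arrays were counted, and 1 with 1 probe per gene, which keeps 1 of the H2-K2 probes. Leaving out 1 array in turn gave 1 to 4. For the slope on dose, 2 became 4 with slide as a random block and 4 with the wider set of noncoding probes, and leaving out 1 array gave 2 to 4. At 50 mg/kg the count of 0 became 1 with array weights. The median control ratio of -0.05 became -1.10 with median centring, -0.20 with processed signals and -0.14 in the deposited series table, and was -0.09 to -0.04 without 1 control. Apart from the wider set and from 1 probe per gene, the cause of these shifts was not tested.

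Of 1524 comparisons of a named member's change at 75 mg/kg with an alternative, 1483 kept their direction and side of the threshold or moved by less than their error, 32 moved further, 6 passed and 3 no longer passed. The 3 were the first probe of H2-K2 without a treated array, and 0 called changes turned sign. No paired analysis was possible because the groups share no replicate numbers.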
